A study of Homo sapiens with 2 samples.

Results

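Long intergenic non-coding RNAs (lincRNAs) are spliced, usually polyadenylated transcripts that lie between protein-coding genes and carry no long open reading frame. A few are known to act on chromatin, on splicing or as scaffolds for proteins, and for most no function is known. As a class they are less abundant and more restricted to particular tissues than messenger RNAs, and many entered the catalogues only as models assembled from RNA sequencing. Commercial arrays therefore carry probes for lincRNA models that have no curated reference record.

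The probes described here belong to the lincRNA design of the Agilent SurePrint G3 human array (probe names starting A_21_P). The name that each carries is not a curated RefSeq record (neither NM_ nor NR_). Of 12051 such probes, 1017 (8.44%) were well above background on at least 1 of 2 arrays, and these 1017 are the members, out of 50599 non-control probes in all. They carried 989 distinct names, counting a probe's own name where no transcript name was given, and each member was printed in 1 spot per array. By the prefix of the name, 534 members were TCONS models, 295 were Ensembl transcripts (ENST), 70 were predicted non-coding RNAs of NCBI (XR_), 29 were predicted coding RNAs (XM_), 26 had no transcript name beyond their own probe name and 63 had other names, mainly cDNA clones and expressed-sequence clusters. TCONS models come from a catalogue assembled from human tissues and cell lines. Its TCONS_l2 names (197 members) mark transcripts of uncertain coding potential and its other names (337 members) mark lincRNAs. Only 3 members (0.295%) could be matched to a gene symbol, so the others are given by probe and transcript name. The array files give no probe sequence, and none is printed.

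Both samples were HCT116, an established human colon cancer line. The mock cells carried an empty pEB vector, and the HOXA5 short cells carried that vector with an insert for HOXA5 short RNA, which is transcribed from the HOXA6-HOXA5 locus, lacks the first exon of HOXA5 and is non-coding. Both were selected with blasticidin for 2 weeks as stable transfectants, which the study does not describe as single clones, and vector and drug were therefore shared by both groups. There was 1 array per group, so no difference was tested, no value has a replicate error, and each difference holds for this pair of arrays, with any difference between the cultures included.

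The HOXA5 probe read 39.4 in mock cells and 346 in HOXA5 short cells, a scaled difference of 2.83 on the log2 scale in the direction of the labels (the part of HOXA5 that it covers is not given in the array files). Of 8 markers of colon epithelial lines, 6 were well above background on both arrays (EPCAM, CDH1, KRT8, KRT18, KRT19 and CDX2) and 2 on neither (VIL1 and CEACAM5). Of 5 genes that a pure epithelial line should lack, PTPRC, PECAM1 and COL1A2 were on neither array, and CD79A (393 and 625) and DES (53.5 and 84.9) were on both. Each probe's log2 signal was taken relative to the array's 75th percentile, which was 35.7 (mock) and 44.0 (HOXA5 short). Copies of probes printed in several spots gave a single-spot spread of 0.26 for the log2 difference (SD, 593 probes), which is technical. After this scaling the 7 RNA spike-ins detected on both arrays all read lower in HOXA5 short, with a median difference of -0.47, and scaling to them instead would raise every difference below by 0.47.

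Most lincRNA models without a RefSeq name were not seen in HCT116 cells at this sensitivity. The share well above background on either array was 8.44%, against 30.1% of the 2899 probes of the same design that have a RefSeq name, 36.1% of the 1522 probes of an earlier non-coding design (A_19_P), 23.4% of other probes without a RefSeq name and 56.7% of other probes with one. Within the members' own design the share followed the kind of name. It was 5.97% for TCONS lincRNA models, 13.9% for TCONS_l2 transcripts of uncertain coding potential, 8.18% for ENST, 9.67% for XR_, 14.2% for probes under their own name and 23.4% for XM_. Predicted coding models were thus seen about as often as probes of other designs without a RefSeq name, and TCONS lincRNA models least often of all.

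The members were also dim where they were seen. On both arrays 796 members (78.3%) were well above background, and their median processed signals were 28.7 (mock) and 35.0 (HOXA5 short). All 17940 probes measured on both arrays had medians of 90.4 and 111. A geometric mean signal below 50 was found for 63.6% of the members and 34.7% of all probes. The remaining members were seen on 1 array, 144 on HOXA5 short and 77 on mock, a division that was 1014 and 482 for all probes. TCONS lincRNA models divided 67 to 24, and TCONS_l2 models 18 to 15.

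**Figure D1:**
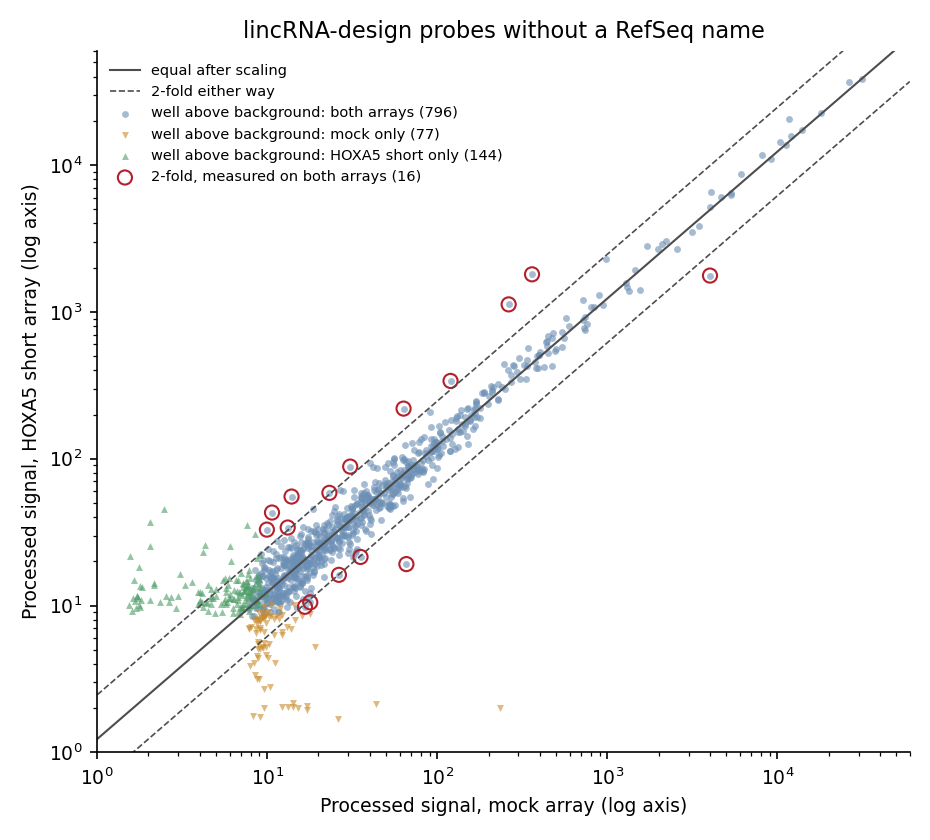
Processed signal of the 1017 members on the mock array (x) and the HOXA5 short array (y), both on log axes. The solid line marks equal signal after scaling and the dashed lines 2-fold, and 16 of the 796 members measured on both arrays lie outside them (circled). Triangles are the 77 members seen on the mock array only and the 144 seen on the HOXA5 short array only.

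A small set of members was bright, and TCONS_l2 names made up its largest part. Of the 96 members with a mean signal over 200, 45 (46.9%) were TCONS_l2, against 20.6% of all 796. Of the 10 brightest members, 9 were TCONS_l2. The brightest probe, A_21_P0011491 (TCONS_l2_00010291), read 31258 in mock and 38370 in HOXA5 short cells, a scaled difference of -0.01. The next, A_21_P0011376 (TCONS_l2_00009118), read 26438 and 36594, a difference of 0.17. A probe of another design for the same transcript, A_24_P126691, gave 0.51. The largest difference among the 10 brightest was 0.52, for A_21_P0012112 (TCONS_l2_00016171; 11690 and 20628), and the other 9 lay between -0.04 and 0.22. They include A_21_P0011041 (TCONS_l2_00005546, 0.02), A_21_P0010525 (TCONS_l2_00000181, 0.0019), A_21_P0012200 (TCONS_l2_00017196, -0.02), A_21_P0013757 (TCONS_l2_00030171, 0.16), A_21_P0012174 (TCONS_l2_00017004, -0.04) and A_21_P0010881 (TCONS_l2_00003581, 0.22). The probe of another kind among the 10 was A_21_P0012940 (ENST00000511991), at 0.09. Apart from A_21_P0012112, the 10 brightest thus read nearly the same on both arrays with this scaling. With another background correction (normexp) the other 9 all lay above 0, between 0.08 (A_21_P0012174) and 0.36 (A_21_P0010881).

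Relative to all probes, the members showed no common shift in HOXA5 short cells. The median difference between HOXA5 short and mock was 0.01 on the log2 scale (SD 0.38 over 796 probes, range -2.08 to 2.02), and 51.3% lay above 0. Over all 17940 probes the median was -0.02 and the SD 0.33. The members' median varied with signal. It was -0.07 for the 157 members with a mean signal below 15 (42.0% above 0) and 0.09 for the 96 over 200 (64.6% above 0). Probes other than members had -0.08 (41.2%) and -0.02 (45.8%) in these ranges. Over 200, other designs without a RefSeq name had 0.12 (67.0%), and the same design with one -0.06 (38.4%). Of the members, 85.9% lay within 0.5 of 0, against 90.9% of all probes. The share was 83.4% for the same design with a RefSeq name and 81.9% for other designs without one. It was 86.6% for A_19_P and 92.6% for other designs with a RefSeq name.

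A few members did differ. At least 2-fold higher on the HOXA5 short array were 10 members (1.26%), beside 1.06% of all probes, and at least 2-fold lower were 6 (0.754%), beside 0.318% of all probes. At 1.5-fold, in either direction, there were 73 members (9.17%), beside 6.25% of all probes. The share of members at 2-fold higher was thus near that of all probes, and the share lower rested on 6 probes. Probes of the same design with a RefSeq name gave 14 higher and 7 lower of 773, with a median of -0.08, and the A_19_P design gave 3 and 4 of 477, with a median of -0.06.

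How often a single spot passes 2-fold with the RNA held the same was read from the copies of probes printed in several spots, within ranges of signal. Below a mean signal of 15, 2 of 157 members were at 2-fold (both lower), and 1.1% of copies stood 2-fold from the probe's other copies. From 15 to 50 there were 5 higher and 3 lower of 349 members, and 1.59% of copies stood apart. From 50 to 200 there were 2 higher and 0 lower of 194 members, and 1.07% of copies stood apart. In these 3 ranges the members' shares were 1.27%, 2.29% and 1.03%, and those of all probes other than members were 0.456%, 1.77% and 1.22%. Copies share the culture and the RNA, so they show the technical part of the spread and none of the part between cultures. Over 200, 3 members were higher and 1 lower of 96 (4.17%), and 0.672% of copies stood apart. Probes other than members gave 68 higher and 17 lower of 6323 in that range (1.34%). The share was 5.03% for the same design with a RefSeq name and 4.37% for other designs without one. It was 0.926% for A_19_P, and other designs with a RefSeq name gave 45 higher and 11 lower of 5598. The share over 200 was thus not particular to the members.

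**Figure D2:**
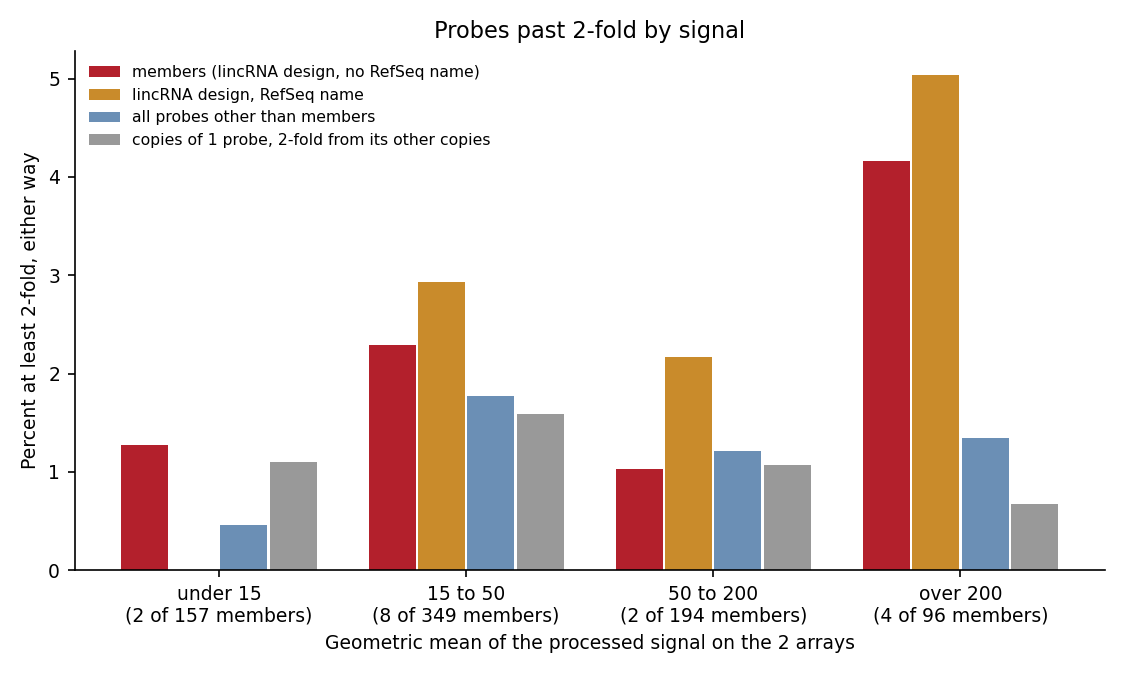
Percent of probes at least 2-fold higher or lower (y) by the geometric mean of processed signal on both arrays (x), for the members, for probes of the same design with a RefSeq name and for all other probes. Grey bars give the percent of 5853 copies of replicated probes that stand 2-fold from the rest of the copies. Counts of members are under the axis, and the bar over 200 rests on 4 of 96 members.

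The 10 members that were higher carried 6 TCONS names, 2 bare probe names, 1 ENST name and 1 expressed-sequence cluster name. None of the 16 members at 2-fold was matched to a gene symbol, and none had a further measured probe for its transcript. The scanner's own error model gave each difference an error of 0.20 to 0.36 (log2), and the 16 were 2.94 to 9.88 times this error, which covers the spot and not the culture. Because the 16 were chosen for their size, ratios of this kind follow from the choice and lend the differences no support. The place on the grid was looked at too, since spots that lie together can also read high or low together. The neighbours of a spot were the other non-control spots within 4 rows and 4 columns that were measured on both arrays, and the surroundings were called uneven where at least 10% of them differed 2-fold. The next spots are those that touch it, corners included, and here spots seen on 1 array count by their bound.

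The largest increase among members measured on both arrays was that of A_21_P0013924, a probe without a transcript name, which read 361 in mock and 1802 in HOXA5 short cells (scanner errors 36.1 and 180). The difference was 2.02 on the log2 scale, with an error of 0.20. None of its 23 measured neighbours differed 2-fold. A spot touching it at a corner did, however, and it is a member too (A_21_P0007321, TCONS_00019584), seen on the HOXA5 short array only (8.48 and 30.9, at least 2.95-fold higher). Whether the 2 spots share a cause was not tested.

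A_21_P0013477 (TCONS_l2_00027751) was next, at 263 and 1125, a difference of 1.79 with an error of 0.20, and 2 of its 28 neighbours and 1 of its next spots differed 2-fold. A_21_P0008252 (TCONS_00022267) read 10.7 and 43.0, a difference of 1.71 with an error of 0.34, and none of 29 neighbours differed. On the mock array this lincRNA model was close to the lowest signal counted as detected there, 7.18. A_21_P0014808, again without a transcript name, read 30.7 and 88.4 (1.22, error 0.22), with 0 of 30 neighbours changed and no changed next spot.

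A_21_P0011387 (TCONS_l2_00009281) read 120 and 339, a difference of 1.20, with 2 of 32 neighbours changed. A_21_P0001246 (ENST00000458044) read 13.2 and 34.0, a difference of 1.06, with 0 of 29 changed. These 6 increases had even surroundings. Under normexp background correction, which adds an offset and so compresses low signals, 4 of the 16 members at 2-fold stayed there (A_21_P0013924, A_21_P0013477, A_21_P0011052 and A_21_P0013558). The other 12 fell to sizes of 0.20 to 0.99, among them A_21_P0008252 (0.47), A_21_P0014808 (0.65) and A_21_P0001246 (0.29). Just short of 2-fold in the scaled signal stood A_21_P0011535 (ENST00000584386, 0.995), A_21_P0011753 (TCONS_l2_00013129, 0.99), A_21_P0004794 (ENST00000453579, 0.97) and A_21_P0005640 (TCONS_00014570, 0.97), also with even surroundings, so the threshold fell in a continuous run of values.

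The other 4 increases had uneven surroundings. A_21_P0008499 (TCONS_00022896) read 13.9 and 55.3, a difference of 1.69. A_21_P0014740 (the expressed-sequence cluster THC2538606) read 9.95 and 32.9, a difference of 1.42. The 2 spots touch at a corner, and 4 of 29 and 4 of 27 of their neighbours differed 2-fold. A_21_P0011052 (TCONS_l2_00005785; 63.3 and 219, difference 1.49) had 3 of 27 neighbours changed. A_21_P0001811 (TCONS_00003548; 23.2 and 58.6, difference 1.03), the member just inside the threshold, had 3 of 29.

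Of the 6 members that were lower, the 4 with even surroundings were all dim and close to the threshold. They were A_21_P0001993 (ENST00000438482; 17.9 on mock and 10.5 on HOXA5 short, -1.07), A_21_P0008295 (ENST00000556035; 16.7 and 9.81, -1.07), A_21_P0014843 (the cDNA clone AK130387; 35.4 and 21.4, -1.03) and A_21_P0014686 (the cDNA clone AK023887; 26.4 and 16.2, -1.01). Their scanner errors were 0.24 to 0.36, and 1 neighbour in all differed 2-fold, beside A_21_P0008295. The next below the threshold was A_21_P0013831 (TCONS_l2_00030598) at -0.94, followed by A_21_P0008623 (TCONS_00023377, -0.90), A_21_P0013784 (TCONS_l2_00030308, -0.88), A_21_P0012609 (TCONS_l2_00020754, -0.86), A_21_P0012971 (ENST00000507290, -0.85) and A_21_P0012979 (ENST00000514048, -0.83).

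The 2 larger decreases lay at the left edge of the grid among changed neighbours. A_21_P0012767 (ENST00000511488) read 65.8 and 19.2, a difference of -2.08, and 12 of its 18 measured neighbours (66.7%) differed 2-fold, with a median of -1.49 over the neighbours. Relative to that median its difference was -0.60. A_21_P0013558 (TCONS_l2_00028644) read 4013 and 1767, a difference of -1.49, and 6 of its 27 neighbours (22.2%) differed. The median over those neighbours was -0.07, and relative to it the difference was -1.42. It was the only member over 200 that was 2-fold lower. The next lower member with uneven surroundings, A_21_P0011299 (TCONS_l2_00008487), was at -0.51.

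Uneven surroundings were rare among the members, and changed members were frequent there. Of the 796 members measured on both arrays, 16 (2.01%) had uneven surroundings and 6 of these 16 (37.5%) were at 2-fold, while 10 of the other 780 (1.28%) were. All probes printed once gave 16.5% and 0.962%. Copies of replicated probes, which measure the same RNA, stood 2-fold from the rest in 17.6% of spots with uneven surroundings and 0.388% of spots with even ones. The part that the grid had in the members' differences was not tested further.

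The left margin held many of these spots. Columns 1 to 14 of the 164 columns held 81 members (7.96%), but 18 of the 34 members with uneven surroundings, whether measured on 1 array or both, and 12 of the 41 (29.3%) at 2-fold by value or by bound. A next spot at 2-fold was found for 19 of these 41 members (46.3%) and for 37 of the other 976 (3.79%). Members at 2-fold that touch each other count here as each other's next spot. These shares are not given for all probes, so whether they are particular to the members was not tested. Besides the 2 pairs named above, adjacent or nearly adjacent members changed the same way in 3 more places. A_21_P0013707 and A_21_P0004109 lay side by side and were both seen on the HOXA5 short array only, A_21_P0001131 and A_21_P0006920 lay 2 rows apart in column 161 and were likewise, and A_21_P0010735 and A_21_P0002931 lay 2 rows apart in column 6 and were seen on the mock array only. Names and kinds of transcript differed within each pair.

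**Figure D3:**
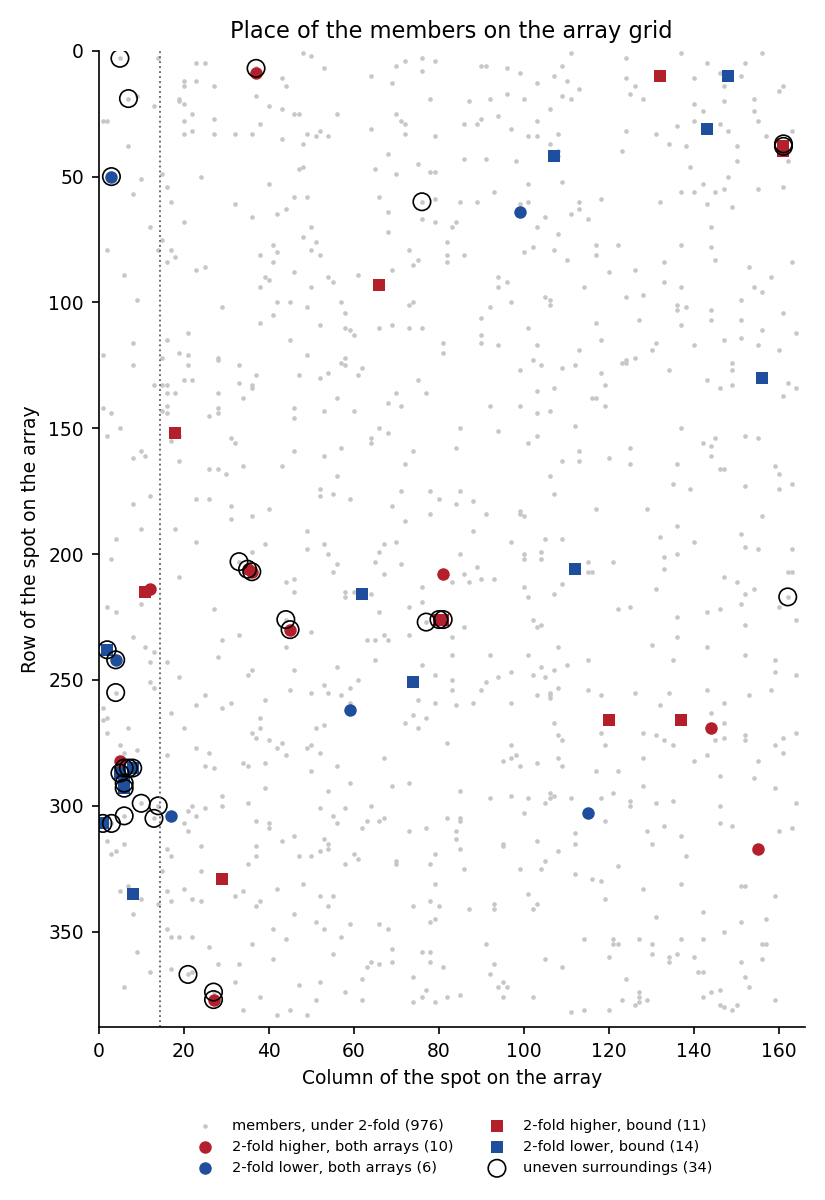
Row and column of the spot of each member on the array grid, with the 16 members at 2-fold on both arrays (dots) and the 25 with a bound of at least 2-fold (squares), red for higher and blue for lower on HOXA5 short. Rings mark the 34 members with uneven surroundings, 18 of which lie left of the dotted line at columns 1 to 14.

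Members seen on 1 array have only a bound on the difference, set against their own dim value or the array's lowest detected signal (7.18 on mock, 8.16 on HOXA5 short), whichever was higher. The bound takes the readings as given and leaves out their scanner errors. Of the 144 seen on the HOXA5 short array only, 11 (7.64%) were at least 2-fold higher, beside 7.69% of all probes seen there only. Of the 77 seen on the mock array only, 14 (18.2%) were at least 2-fold lower, beside 13.7% of all such probes. Most of these members were near the limit of detection, with a median bright signal of 11.9 and 9.74.

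The largest bound belonged to A_21_P0002871 (ENST00000601385), which read 234 in mock cells (error 22.0) and 2.01 in HOXA5 short cells, where it was not well above background. It was at least 35.4-fold lower, or -5.15 on the log2 scale, and the bound shrank to -2.19 under normexp. None of 32 neighbours measured on both arrays differed 2-fold, but counting spots seen on 1 array, 6 of 40 did, 2 of them next spots, and it lies in column 8. The other mock-only bounds with even surroundings were smaller. A_21_P0003252 (TCONS_00006992; 26.1 and 1.68) was at least 3.95-fold lower, A_21_P0010445 (TCONS_00029707; 17.2 and 2.06) at least 2.60-fold, A_21_P0013104 (TCONS_l2_00024954; 17.1 and 1.96) at least 2.59-fold and A_21_P0001837 (ENST00000423925; 17.9 and 8.74) at least 2.53-fold. None of the measured neighbours of the first 3 differed 2-fold. Under normexp these smaller bounds shrank to between -0.62 and -0.20 on the log2 scale.

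In the other direction the largest bound, at least 5.09-fold higher, was that of A_21_P0013707 (TCONS_l2_00029851; 2.46 on mock and 45.1 on HOXA5 short), with uneven surroundings (4 of 23 neighbours changed). With even surroundings, A_21_P0006920 (TCONS_00018348; 2.04 and 37.2) was at least 4.20-fold higher, with 2 of its next spots changed. Counting spots seen on 1 array, 4 of its 32 neighbours differed 2-fold. A_21_P0006397 (ENST00000319878; 7.60 and 35.2) was at least 3.75-fold higher and A_21_P0012459 (TCONS_l2_00019510; 4.32 and 25.9) at least 2.92-fold, both with no changed next spot and 1 changed neighbour. A_21_P0000951 (ENST00000452795; 6.01 and 25.4) was at least 2.86-fold higher, with 3 of 34 neighbours changed. Under normexp these higher bounds with even surroundings shrank to between 0.29 and 0.41 on the log2 scale. With uneven surroundings were 3 of the 11 higher and 6 of the 14 lower bounds, and 7 of the 14 lower ones lay in columns 1 to 14.

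By kind of name, the medians lay close to 0 with 1 exception. TCONS lincRNA models had a median difference of 0.04 (246 probes, 3 at 2-fold higher and 0 lower) and TCONS_l2 models 0.05 (164 probes, 3 and 1). ENST transcripts had a median of -0.03 (231 probes, 1 and 3), XR_ predictions -0.03 (52 probes, 0 and 0) and XM_ predictions 0.03 (27 probes, 0 and 0). These signs depended on the processing. The ENST and XR_ medians turned under scaling to the array median, that of ENST also under cyclic loess, that of XR_ also with members seen on 1 array and with the deposited values, and those of XM_ and of all TCONS names under normexp. Names from cDNA clones and clusters had a median of -0.06 (54 probes, 1 and 2), which also turned under scaling to the array median and with the neighbours' median subtracted. At 2-fold higher were 1.22% of TCONS lincRNA models, 1.83% of TCONS_l2, 0.433% of ENST and 1.85% of clone and cluster names, beside 1.06% of all probes. At 2-fold lower were 0, 0.610%, 1.30% and 3.70%, beside 0.318% of all probes. Each of these shares rested on at most 3 probes of its class.

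The exception was the class with no transcript name. Its 22 probes measured on both arrays had a median of 0.24, with a range of -0.39 to 2.02 and 18 of 22 above 0. Of these probes, 2 (9.09%) were at 2-fold higher and 0 lower, beside 1.06% and 0.318% of all probes. The medians of the 22 were above 0 in all 4 ranges of signal. They were 0.51 below 15 (4 probes), 0.22 from 15 to 50 (8 probes), 0.23 from 50 to 200 (6 probes) and 0.52 over 200 (4 probes). All 22 had even surroundings, and relative to their neighbours the median was 0.24. The sign of this median was the same under every scaling tried. The 7 of them above the median signal of detected probes on both arrays had a median of 0.12. What these probes target is not stated in the array files.

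**Figure D4:**
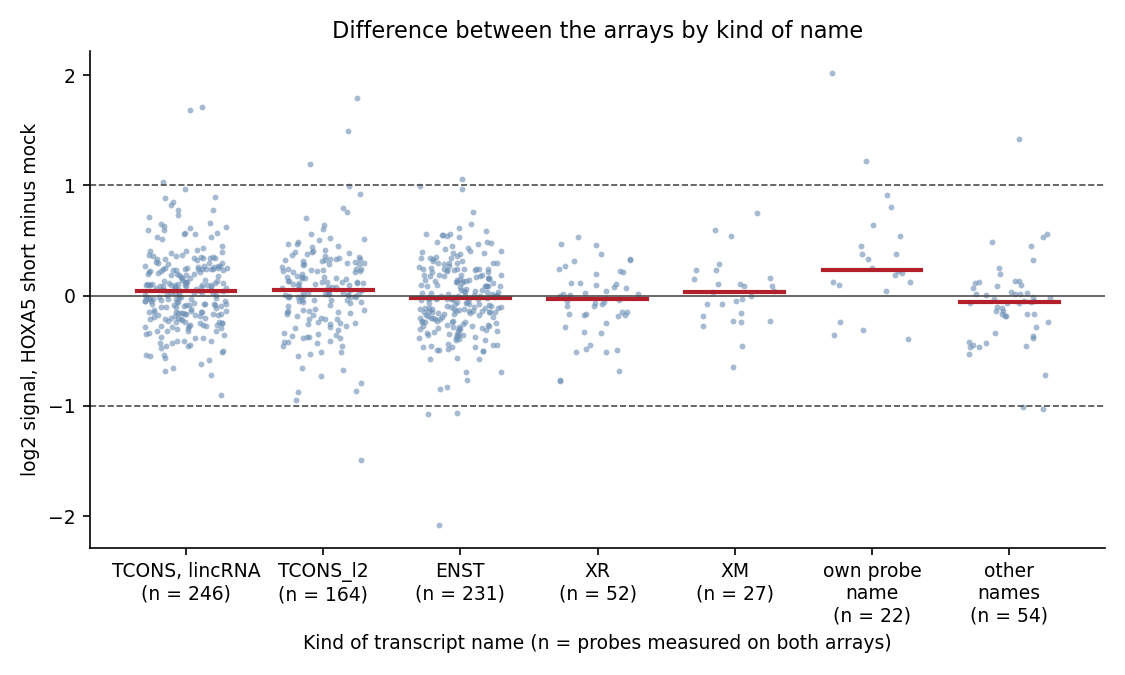
log2 difference in signal, HOXA5 short minus mock (y), of the 796 members measured on both arrays, by kind of transcript name (x). Points are probes, red bars are medians and dashed lines mark 2-fold; the median of the 22 probes under their own name is 0.24 and those of the other kinds lie between -0.06 and 0.05.

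Different probes of the same transcript gave the closest thing to a repeat measurement, although they share the RNA and the arrays and are not replicates of the condition. There were 42 transcript names with several measured probes, 87 probes in all, of which 23 names had members only and 19 had a member and a probe of another design. The probes of 24 names (57.1%, exact 95% binomial interval 41.0 to 72.3%, counting error only) all lay on the same side of 0, 12 above and 12 below. These were 12 of the 23 names with members only and 12 of the 19 with a probe of another design. The interval takes the names as independent, although they share both arrays. The share expected without any agreement between probes was not computed, and no share over all transcripts with several probes is given. The count is therefore not read as agreement between probes. No name had all its probes at 2-fold. Over the 39 names with a pair of probes Pearson's r was 0.36, as a description across transcripts that share both arrays, and the SD within pairs was 0.28.

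The name whose probes all passed 0.5 in the same direction was XM_005263199, a predicted mRNA of FHIP1A, a component of a complex that links Hook adaptor proteins to cargo. Its probes read 25.2 and 46.9 (difference 0.59) and 42.1 and 87.7 (difference 0.75). Of the second probe's 33 neighbours 3 differed 2-fold, as did 2 of its 5 next spots. TCONS_l2_00005178 had the highest mean, with 0.44 and 0.92, and TCONS_l2_00003558 was lowest with -0.55 and -0.37. The 3 probes of XR_109592 read -0.51, -0.25 and -0.17. The probes of TCONS_00020412 differed most, at 0.78 (16.3 and 34.5) and -0.45 (9.46 and 8.53).

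**Figure D5:**
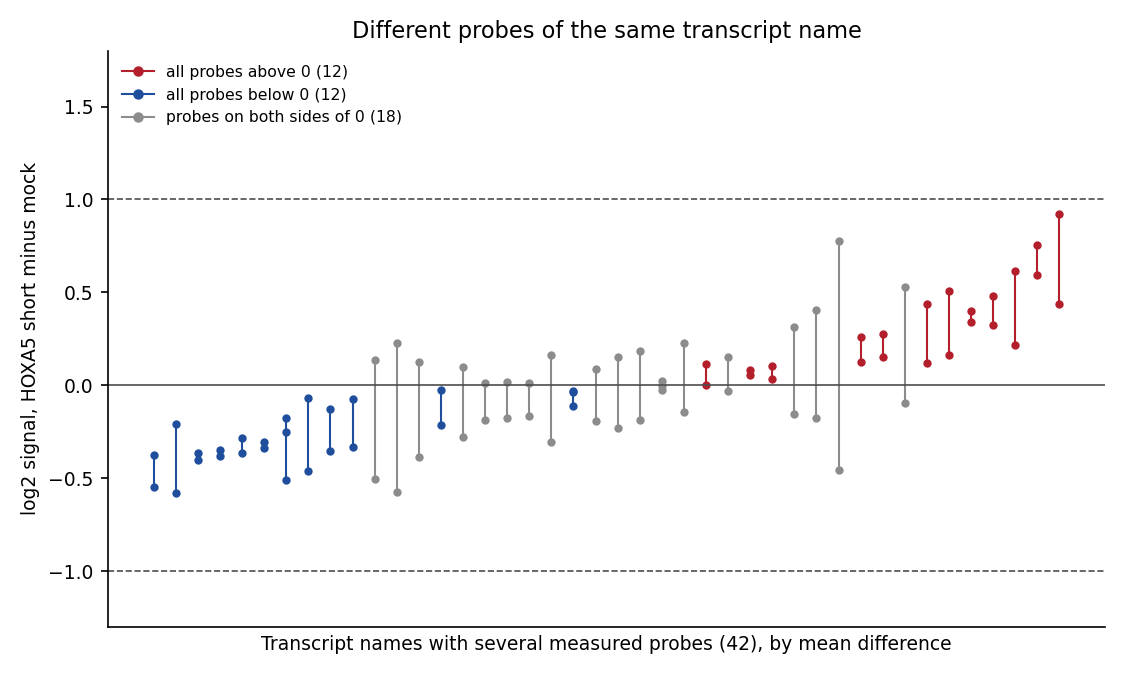
log2 difference, HOXA5 short minus mock (y), of each probe of the 42 transcript names with several measured probes, ordered by their mean (x). A line joins the probes of a name; 12 names lie wholly above 0 and 12 wholly below, and no probe reaches the dashed lines at 2-fold.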

How the data were processed

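Total RNA of 1 mock and 1 HOXA5 short culture was labelled with Cy3 and hybridized in a single colour on the same slide. Per the file headers, the scanner software was Feature Extraction 11.5.1.1, on a design annotated on hg19, with a grid of 384 rows and 164 columns. The deposited scanner files give an intensity per spot on a linear scale (processed signal, background corrected), an error and flags. The authors also deposited log2 values for 19461 probes, centred per probe. The difference between the columns followed the scanner difference (Pearson's r = 0.999963 over 17940 probes) with a shift of 0.00114, so they were used as an alternative. The study's methods name a commercial package and filters on low and flagged values.

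Here log2 signals were averaged over the spots of a probe and the array's 75th percentile over non-control probes was subtracted. Probes were compared where well above background on both arrays; 4 flagged probes, none of them members, were left out. Flagged copies stayed in the spread between copies and among neighbours. Surroundings needed at least 10 neighbours. Members were classed by the prefix of their name, with prefixes of under 20 members pooled as other. Python 3.11.15, numpy 2.4.6, pandas 2.3.3 and scipy 1.17.1 were used. R 4.3.3 and limma 3.58.1 gave the quantile, cyclic loess and normexp (median signals, offset 50) alternatives. The precision is limited by 1 array per group. The members, lists and comparisons were chosen with earlier results of these data known.

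Named are the 10 brightest members, the 10 largest differences in each direction with even surroundings (here those at 2-fold and the next below), the 3 largest with uneven surroundings, the 5 largest bounds with even surroundings, the members beside 2-fold, and, chosen after their values were seen, the other members at 2-fold, the largest bound higher, adjacent pairs and repeat probes at the extremes. 1 member with a symbol is not reported here. Symbols came from RefSeq accessions of GRCh38.p14. Other scalings, filters, thresholds and grid rules were tried. Transcripts without a symbol were not placed on the genome, and HOX-cluster members were not looked for.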

Additional observations from a re-analysis of the deposited data

How the results depend on the processing

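No paired analysis was possible because each group has 1 array and no result comes from a test. Median differences shifted most when the arrays were scaled to the spike-ins, which raised all probes by 0.47 (median over all probes 0.45). The members then had 0.48, TCONS 0.52, ENST 0.44, XR_ 0.44, XM_ 0.50, bare probe names 0.70 and other names 0.41, and 88.1% of transcripts with several probes moved the same way. Scaling to the array median raised all probes by 0.0977. The small medians of ENST, XR_ and other names were above 0 under it. The members' median was -0.01 with the percentile taken over detected probes and -0.02 with normexp, which also lowered that of bare probe names from 0.24 to 0.10.

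Counts stayed close to the main ones with some settings and changed with others. Members higher and lower numbered 11 and 6 with quantile normalization, 12 and 5 with cyclic loess, and 10 and 6 with the percentile taken over detected probes. In place of 10 members higher and 6 lower, there were 16 and 2 with scaling to the median, 57 and 2 with the spike-ins, 3 and 1 with normexp, 3 and 1 of 168 among brighter members, 44 and 29 at 1.5-fold, and 4 and 1 at 3-fold. Over all 1017 members, a wider set that counts dim values without a bound, there were 61 and 47. The deposited log2 values, counted over the same 1017, gave the same numbers. Even surroundings alone gave 6 higher, and subtraction of the neighbours' median gave 3 lower. Bounds of 2-fold numbered 25 and became 48 with the spike-ins (44 higher, 4 lower), 1 with normexp and 16 with even surroundings. Changed members with uneven surroundings numbered 6, and 2 with a window of 2 rows and columns, with 20% of neighbours required, or at 3-fold. Counting neighbours seen on 1 array, an alternative chosen after seeing the data, gave 5.

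Of 386 alternative values for 47 named members, 14 changed sign, in 4 of the brightest members whose differences were at most 0.04 in size, and no member at 2-fold changed sign. Of the 386 values, 83 moved by more than the single-spot spread, 47 with the spike-ins, 33 with normexp and 3 with the neighbours' median subtracted.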

Other observations

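Probes named only by their own probe name are found in other designs of the array too, and they lay above 0 there as well. The class has 514 probes measured on both arrays, 22 of them members. The median difference was 0.15 for the 127 probes of the A_24_P design (10 at 2-fold higher, 0 lower) and 0.14 for the 337 of the A_33_P design (14 and 2). The shares higher were 7.87% and 4.15%, beside 1.06% of all probes measured on both arrays. The shares lower were 0 and 0.593%, beside 0.318%. Of all 514 probes, 68.5% lay above 0, against 45.8% of the 17426 other probes, whose median was -0.02. The 497 of them with even surroundings that were printed once had a median of 0.14. Below a signal of 15 the median was -0.02 for 42 probes, and in the 3 ranges above it was 0.19, 0.13 and 0.15. Other probes of other designs without a RefSeq name had a median of 0.00 (941 probes, 20 or 2.13% at 2-fold higher and 7 or 0.744% lower). The targets of the bare probe names were not looked up, and what they share was not tested.

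Probes of the lincRNA design that carry a RefSeq name divided by its kind. Curated non-coding records (NR_) had a median of -0.13 (475 probes, 4 at 2-fold higher and 7 lower), and curated coding records (NM_) had -0.01 (298 probes, 10 and 0). The shares higher were 0.842% and 3.36%, beside 1.06% of all probes. The shares lower were 1.47% and 0, beside 0.318% of all probes.

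Members with close TCONS numbers in the catalogue were compared as pairs. Over 23 pairs with numbers at most 3 apart Pearson's r was 0.11, and over 47 pairs at most 10 apart it was 0.07, with 24 of 47 pairs on the same side of 0, as descriptions across pairs that share both arrays.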
